A study of Caenorhabditis elegans with 24 samples.

Results

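Long intergenic noncoding RNAs (lincRNAs) are transcripts of RNA polymerase II that hold no long open reading frame and lie apart from coding genes. In C. elegans many are spliced and polyadenylated, and the function of most of them is not known. Some lincRNAs of animals act on neighbouring genes in cis and others bind proteins or microRNAs. The lincRNA genes described here were chosen by name and detection: gene IDs of the form linc- followed by a number, with a value above 0 in at least 4 of the 24 libraries. There were 134 such genes among 46739 features in the table. A further 21 linc genes were listed at 0 in all libraries and 15 were above 0 in 1 to 3 libraries only. The 2 genes just inside the detection limit, linc-97 and linc-114, each had 4 libraries above 0 and mean levels of 0.085 and 0.024 scaled RPKM.

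Whole worms of the wild-type strain N2 (WT) were grown at 25 °C and in every group were fed RNAi bacteria that target cdc-25.1, which encodes a phosphatase of the cell cycle, so that they had no offspring. As day 1 adults they received blunt force trauma by shaking at 8600 rpm for 16 s, or the same handling without shaking, and RNA was sequenced 8, 48 and 96 h later. Each of the 6 groups (injured and control at each time) had 4 libraries of poly(A)-selected RNA, so a transcript without a poly(A) tail would be seen poorly. Legends of the study call the replicates independent without saying whether they were separate cultures, so p-values measure the spread between these samples only. RPKM is the number of reads divided by exon length and by the total of mapped reads. All levels below are scaled RPKM, in which each library was divided by 1 factor so that the typical gene had the same level in every library.

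The libraries held an estimated 19450000 to 61425000 mapped reads, and the deepest, control 48 h library 4, gave 46.1% of its reads to rRNA. Control 48 h library 2 (8.29%) and injured 8 h libraries 4 (7.82%) and 2 (5.08%) also stood apart, against 0.659 to 2.99% in the other 20. The RNAi target cdc-25.1 was present in all groups and was higher after injury at 48 h (log2 difference 1.74 ± 0.53 SE, adjusted p = 0.00781) and at 96 h (1.72 ± 0.53, adjusted p = 0.00625, limma). Other cell types moved as well. From 8 to 96 h in the controls, 32 of 35 oocyte and germline markers fell and 2 rose, 16 of 19 neuronal markers rose and 2 fell, and 5 of 6 vitellogenins (yolk proteins) fell. With injury, germline markers rose (0, 32 and 33 of 35 at 8, 48 and 96 h; 0, 2 and 2 fell) and intestinal markers fell (4, 12 and 13 of 14; 1, 1 and 0 rose). Of 6 vitellogenins 1, 6 and 6 fell with injury, and of 19 heat shock genes 17, 4 and 15 rose and 0, 5 and 4 fell. Of 19 neuronal markers 15, 7 and 3 rose and 0, 2 and 1 fell. Of 20 muscle markers 14, 0 and 1 rose and 0, 8 and 7 fell. Of 12 epidermal markers 3, 0 and 1 rose and 0, 8 and 2 fell, and of 20 sperm protein genes 0 rose and 3, 7 and 1 fell. In whole worms more cells of a type and more RNA per cell cannot be told apart.

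Most lincRNA genes were expressed at a low level. The median over the 134 genes was 0.278 scaled RPKM, 36 genes had a mean of at least 1 and 8 a mean of at least 10. There were 48 genes that reached a deposited RPKM of 1 in at least 4 libraries and were tested. Their median level was 2.35, against 12.61 for all 14813 features tested. A tested lincRNA gene was covered by a median of 24.5 reads per library, and the other 86 by 2.58. A gene could pass this limit through a group in which it was high, so the counts of calls below describe these 48 genes and not all 134. The highest untested mean was 0.621 and the lowest tested mean 0.443 scaled RPKM.

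The genes lie on all chromosomes of the ce11 assembly: 17 on I, 32 on II, 18 on III, 22 on IV, 18 on V and 27 on X, with 62 on the plus and 72 on the minus strand. Their exons cover 127 to 4183 bases, with a median of 522. Of the 134, 44 have 1 exon block, 67 have 2 and 23 have 3 or more. In spite of the name, 28 of them overlap the span of a protein-coding gene and 43 share exon bases with some other annotated gene. Genes of piRNAs were left out of this and all later counts of shared exon bases. The median distance to the nearest protein-coding gene was 640.5 bases and the longest 11482 bases.

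The genes with the highest mean levels were linc-6 (65.9 scaled RPKM, range 4.75 to 330), linc-11 (28.7, 15.4 to 59.2), linc-8 (26.7, 11.4 to 44.1), linc-22 (25.5, 5.45 to 53.8) and linc-5 (15.8, 9.47 to 25.4). All 5 varied across the groups, and linc-6 varied by far the most. The summed level of the 134 genes averaged 189 ± 22.5 (SD, n = 4) in controls and 197 ± 36.0 in injured worms at 8 h, 297 ± 57.1 and 277 ± 45.8 at 48 h, and 354 ± 42.4 and then 607 ± 106 at 96 h. A single gene made up much of the last sum, as linc-6 took 45.5 to 50.8% of it. Without linc-6 the sum was 332 ± 35.4 in controls and 314 ± 53.4 in injured worms at 96 h, and the ranges overlapped. The number of lincRNA genes above 0 in a library ranged from 84 to 118.

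**Figure D1:**
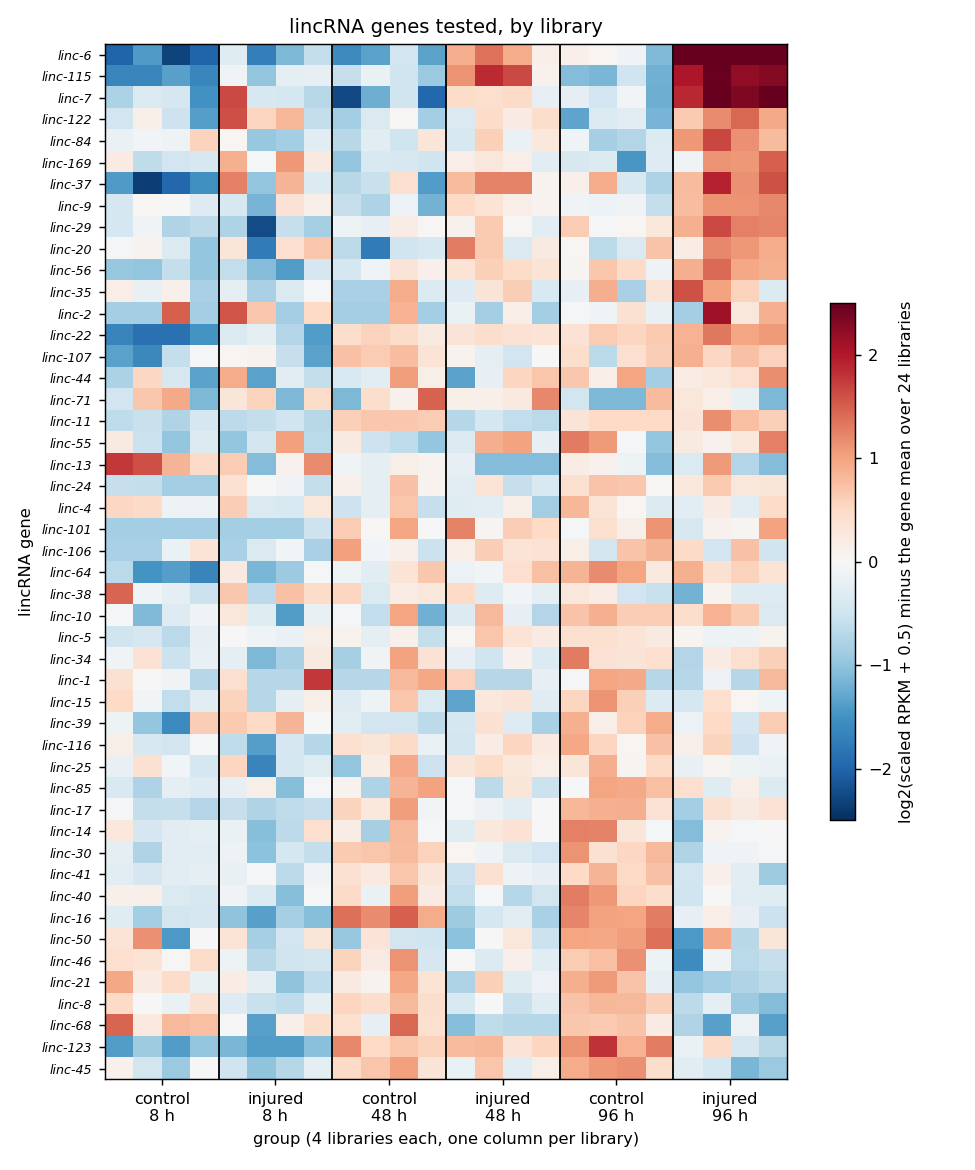
Each row is 1 of the 48 lincRNA genes tested and each column 1 of the 24 libraries, 4 per group; colour gives log2(scaled RPKM + 0.5) minus the mean of the gene, and rows are ordered by the change with injury at 96 h. The topmost rows (linc-6, linc-115, linc-7) are darkest red in the 4 injured 96 h libraries, and many rows in the lower part are blue at 8 h, red in the 96 h controls and paler or blue in injured worms at 96 h.

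How lincRNA levels changed in uninjured worms was asked first, since the age-matched controls are the base for each injury comparison. From 8 to 96 h, 25 of the 48 lincRNA genes rose and 1 fell, while 36.0% of all features tested rose and 36.1% fell. The median lincRNA change was 0.74 on the log2 scale, against 0.04 for all features. Over all 134 genes without the level limit it was 0.18, against 0.09 for all features in that fit. In this comparison 21 lincRNA genes had all 4 of the 96 h controls above all 4 of the 8 h controls (34.8% of all features) and 1 had them below (35.8%). The median change was 0.26 from 8 to 48 h and 0.28 from 48 to 96 h, against 0.07 and -0.05 for all features. Without the 4 rRNA-rich libraries these lincRNA medians were 0.54 and 0.10. From 8 to 48 h, 16 rose (32.1% of all features) and 1 fell (30.7%); the controls did not overlap for 14 above (30.4%) and 1 below (29.9%). Between 48 and 96 h 4 rose (6.62% of all features) and 0 fell (10.6%), with 8 of the 48 at an unadjusted p below 0.05 (limma). The groups did not overlap for 3 above (13.1%) and 1 below (13.5%). On the deposited values 26 rose from 8 to 96 h (36.2% of all features) and 1 fell (26.0%), and under upper-quartile scaling 29 rose (46.6%) and 1 fell (27.8%). Over all 134 genes without the level limit, 31 rose (29.4% of 20917 features) and 7 fell (26.4%) from 8 to 96 h, while 24 rose (5241 of 20917 features) and 6 fell (4576) from 8 to 48 h. As listed above, germline markers fell and neuronal markers rose over the same interval. The summed level of the germline list was 10129 to 11888 at 8 h and 12392 to 13453 at 96 h. Without its 2 rising members, the eggshell genes perm-2 and perm-4, the other 33 summed to 4906 to 7634 and 764 to 1465. The neuronal list summed to 554 to 623 at 8 h and 1070 to 1157 at 96 h, and no marker of either list was at 0 throughout. Their part in the lincRNA change was not tested.

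The largest rises were those of linc-123, linc-22 and linc-64. The levels of linc-22, a gene of 5 exon blocks on X (9069138 to 9073735, plus strand), were 6.44, 5.47, 5.45 and 7.24 scaled RPKM in controls at 8 h. At 48 h they were 29, 31.9, 29.3 and 25, and at 96 h 27.3, 33.4, 31.3 and 33.7. All later controls stood well above the 8 h controls, and the 48 h and 96 h controls overlapped. The log2 change from 8 to 96 h was 2.27 ± 0.17 (SE, adjusted p = 1.24e-10, limma), and it rested on about 571 reads per library at 8 h and 2994 at 96 h.

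linc-123, on chromosome V (15443826 to 15444354, minus strand), was listed at 0, 0.219, 0 and 0.170 in controls at 8 h. It reached 2.40, 4.10, 1.91 and 2.72 at 96 h (log2 change 2.44 ± 0.24, adjusted p = 5.76e-09, limma). The 8 h level stands for about 1 read per library, so the size of this change depends on the constant of 0.5 added before taking logs. linc-64 on X (1765233 to 1765806, plus strand) went from 0.934, 0.302, 0.381 and 0.222 to 3.59, 4.63, 4.02 and 2.21 (2.11 ± 0.30, adjusted p = 1.21e-06). In both genes the groups were fully separated. linc-16, linc-37, linc-6 and linc-11 also rose from 8 to 96 h, by 1.63, 1.79, 1.68 and 1.04 on the log2 scale. linc-107 on II rose by 1.52 ± 0.32 already at 48 h (adjusted p = 0.000278).

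The only tested lincRNA gene that fell in the controls was linc-13, on II (1071507 to 1071839, minus strand). Its levels were 3.10, 2.72, 1.40 and 0.964 at 8 h, 0.491, 0.383, 0.660 and 0.613 at 48 h and 0.705, 0.628, 0.459 and 0 at 96 h. All 8 h controls lay above all later controls. The log2 change to 96 h was -1.41 ± 0.44 (adjusted p = 0.0062) and to 48 h -1.21 ± 0.44 (adjusted p = 0.0196, limma). The 48 h call was lost without control 8 h library 1 (adjusted p = 0.0683) or library 2 (0.061). Over all alternative fits it was lost in 4, with limma adjusted p of up to 0.103.

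**Figure D2:**
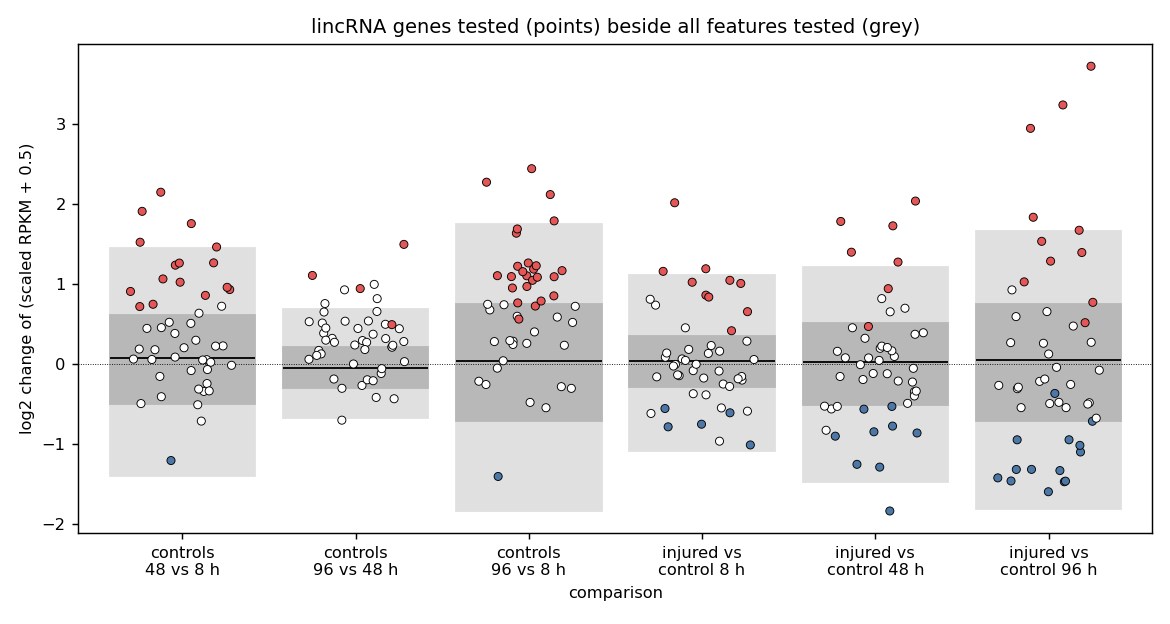
Points are the 48 lincRNA genes tested, placed by their log2 change of (scaled RPKM + 0.5) in 6 comparisons, red for higher and blue for lower at an adjusted p below 0.05 and white for not called; grey boxes give the interquartile range and the 5th to 95th percentile of all features tested, with the median as a line. In the controls from 8 to 96 h the points lie mostly above the line, with a median of 0.74, and 3 points at 96 h after injury lie above 2.9.

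At 8 h after trauma 10 of the 48 lincRNA genes were higher in injured worms (20.9% of all features tested) and 5 were lower (16.6%), so the shares of the lincRNA genes, 20.8% and 10.4%, were close to or below the background. Only 4 lincRNA genes had all injured libraries above all controls (15.5% of all features) and 2 below (13.6%). The count was not stable. Both directions together gave 15, but 8 without injured library 1, 9 without control library 2 and 9 without control library 3, and the deposited scale gave 6 higher (11% of all features) and 1 lower (11.4%). Over all 134 genes without the level limit 13 were higher (14.5%) and 10 lower (12.2%).

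The largest rise at 8 h was that of linc-37, on chromosome III (832984 to 833347, plus strand). Control levels were 0.451, 0, 0.148 and 0.381 scaled RPKM, and injured levels 5.6, 0.783, 4.06 and 1.51. Each injured library was above each control, with wide spread among the injured (2.99 ± 2.24, SD, n = 4). The log2 difference was 2.01 ± 0.44 (adjusted p = 0.000906), and linc-37 stayed higher at 48 h (1.39 ± 0.44, adjusted p = 0.00981) and 96 h (1.39 ± 0.44, adjusted p = 0.00765, limma). At 48 and 96 h its groups overlapped. linc-22 was higher as well, at 16.35, 18.2, 12.58 and 7.81 against the 8 h controls given above (1.04 ± 0.17, adjusted p = 4.29e-05). Its injured levels at 8 h lay between those of the 8 h and the 48 h controls. By 48 h injured and control worms had nearly the same linc-22 level (27.6 ± 1.0 and 28.8 ± 2.85), and at 96 h it was again higher with injury (0.51 ± 0.17, adjusted p = 0.0105).

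Of the genes that were lower at 8 h, linc-8 is the most abundant; it lies on chromosome II (2501838 to 2503802, minus strand) and has 5 exon blocks. Its levels were 34.6, 24.5, 22.1 and 32.5 in controls and 19.7, 16.51, 15.8 and 21 after injury. All injured libraries lay below all controls, the closest pair being 22.1 and 21. The log2 difference was -0.61 ± 0.17 (adjusted p = 0.00551, limma). linc-46, also on II, was lower by a similar amount (-0.75 ± 0.29, adjusted p = 0.0473). Its call was lost without any 1 of 6 libraries (control 1, 2 and 4, injured 2, 3 and 4), with adjusted p between 0.0678 and 0.111. Over all alternative fits the linc-46 call was lost in 12, with limma adjusted p of up to 0.157. linc-5 was slightly higher (0.41 ± 0.15, adjusted p = 0.035), a call lost without control library 1, 2 or 3 or injured library 1 or 4 (adjusted p 0.0546 to 0.117). Over all alternative fits the linc-5 call was lost in 10, with limma adjusted p of up to 0.383.

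At 48 h 7 lincRNA genes were higher with injury (30.5% of all features) and 9 were lower (28.0%), a smaller share than that of all features in either direction. The groups did not overlap for 7 above (27%) and 6 below (26.2%). This split depended on the scale. It was 11 higher (45.8% of all features) and 3 lower (10.2%) on the deposited values, which shifted the median of all features by 0.48 on the log2 scale, and 6 higher (22.6%) and 11 lower (36.0%) under upper-quartile scaling, which shifted it to -0.16. Over all 134 genes 9 were higher (21.6%) and 9 lower (21.2%).

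The strongest rise was that of linc-6, a gene with 1 exon block of 174 bases on X (1982710 to 1982883, minus strand). At 48 h its levels were 8.14, 9.76, 18.1 and 9.85 in controls and 48.6, 66.6, 49.0 and 28.9 in injured worms. All injured libraries were above all controls, and the log2 difference was 2.03 ± 0.31 (adjusted p = 8.6e-06, limma). linc-115 and linc-7, also on X, were higher at this time as well. linc-115 (15745719 to 15746204, plus strand) was at 0.540, 0.871, 0.599 and 0.317 in controls and at 2.85, 5.12, 4.37 and 1.16 with injury (1.72 ± 0.28, adjusted p = 1.87e-05). linc-7 (16002599 to 16003728, plus strand), inside the span of the protein-coding gene C09G1.4 on the opposite strand, was at 0.405, 1.36, 2.56 and 0.613 in controls and at 5.47, 5.30, 5.59 and 3.27 with injury (1.78 ± 0.42, adjusted p = 0.000951). For both genes the groups were separated. linc-9, on chromosome I, was higher by 0.94 ± 0.25 (adjusted p = 0.00225). linc-20 on X was higher by 1.27 ± 0.44 (adjusted p = 0.0174), a call lost without control library 2 (adjusted p = 0.0802) or injured library 1 (0.0774).

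Among the genes lower at 48 h, linc-16 and linc-11 on chromosome II had the clearest separation. linc-16 (1820242 to 1820946, minus strand) was at 14.6, 12.8, 16.0 and 10.6 in controls and at 2.67, 3.84, 4.40 and 2.85 in injured worms. Its highest injured library was below its lowest control, and the log2 difference was -1.84 ± 0.18 (adjusted p = 1.7e-08). linc-11 (3373169 to 3374185, minus strand) was at 39.9, 41.9, 42.1 and 40.6 in controls and at 15.8, 19.1, 16.9 and 16.25 with injury (-1.25 ± 0.12, adjusted p = 3.13e-08, limma). The injured level of linc-11 at 48 h was that of both groups at 8 h, which were 17.3 ± 1.74 in controls and 16.9 ± 0.974 with injury (SD, n = 4). linc-30 on I (-0.90 ± 0.21, adjusted p = 0.000672) and linc-8 (-0.86 ± 0.17, adjusted p = 0.000128) were lower too, though neither was called on the deposited scale (adjusted p = 0.102 and 0.243). linc-107 was called lower (-0.78 ± 0.32, adjusted p = 0.0407), and the call was lost without control library 1, 2 or 3 or injured library 2 or 3 (adjusted p 0.0695 to 0.11). Over all alternative fits the linc-107 call was lost in 9, with limma adjusted p of up to 0.371.

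At 96 h 11 lincRNA genes were higher with injury (37.4% of all features tested) and 14 were lower (33.2%). The median change was -0.26, against 0.05 for all features. Over all 134 genes without the level limit it was -0.01, against -0.01 for all features in that fit. The groups did not overlap for 10 above (36.1%) and 12 below (30.4%), and over all 134 genes 18 were higher (27.7%) and 18 lower (25.8%). Upper-quartile scaling gave 9 higher (27.2% of all features) and 17 lower (43.8%) and shifted the median of all features to -0.26. Intestinal markers fell and germline markers rose in the same comparison, as listed above. The summed level of the intestinal list was 2360 to 2962 in controls and 560 to 1102 after injury. That of the whole germline list was lower after injury, at 12392 to 13453 in controls and 7601 to 8646 in injured worms. Without perm-2 and perm-4 the germline sum was higher after injury, at 764 to 1465 in controls and 3961 to 6945 in injured worms. Their part in the lincRNA differences was not tested.

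A set of 3 genes on X led the rises at 96 h by a wide margin. linc-6 was at 28.1, 26.6, 24 and 11.6 in controls and at 210, 328, 301 and 330 in injured worms. The lowest injured library was far above the highest control. The log2 difference was 3.72 ± 0.31 (95% interval 3.07 to 4.36), a 13.1-fold difference on the scale of scaled RPKM + 0.5 (adjusted p = 7.77e-10, limma). linc-115 was at 0.232, 0.203, 0.599 and 0.176 in controls and at 5.81, 8.08, 6.73 and 7.13 after injury (3.23 ± 0.28, adjusted p = 1.25e-09). Its control values stand for about 3 reads per library and its injured values for about 74.9. linc-7 was at 3.20, 2.63, 3.66 and 1.36 in controls and at 15.5, 29.7, 21.5 and 28.8 after injury (2.94 ± 0.42, adjusted p = 1.47e-06). Neither gene had any overlap between the groups.

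**Figure D3:**
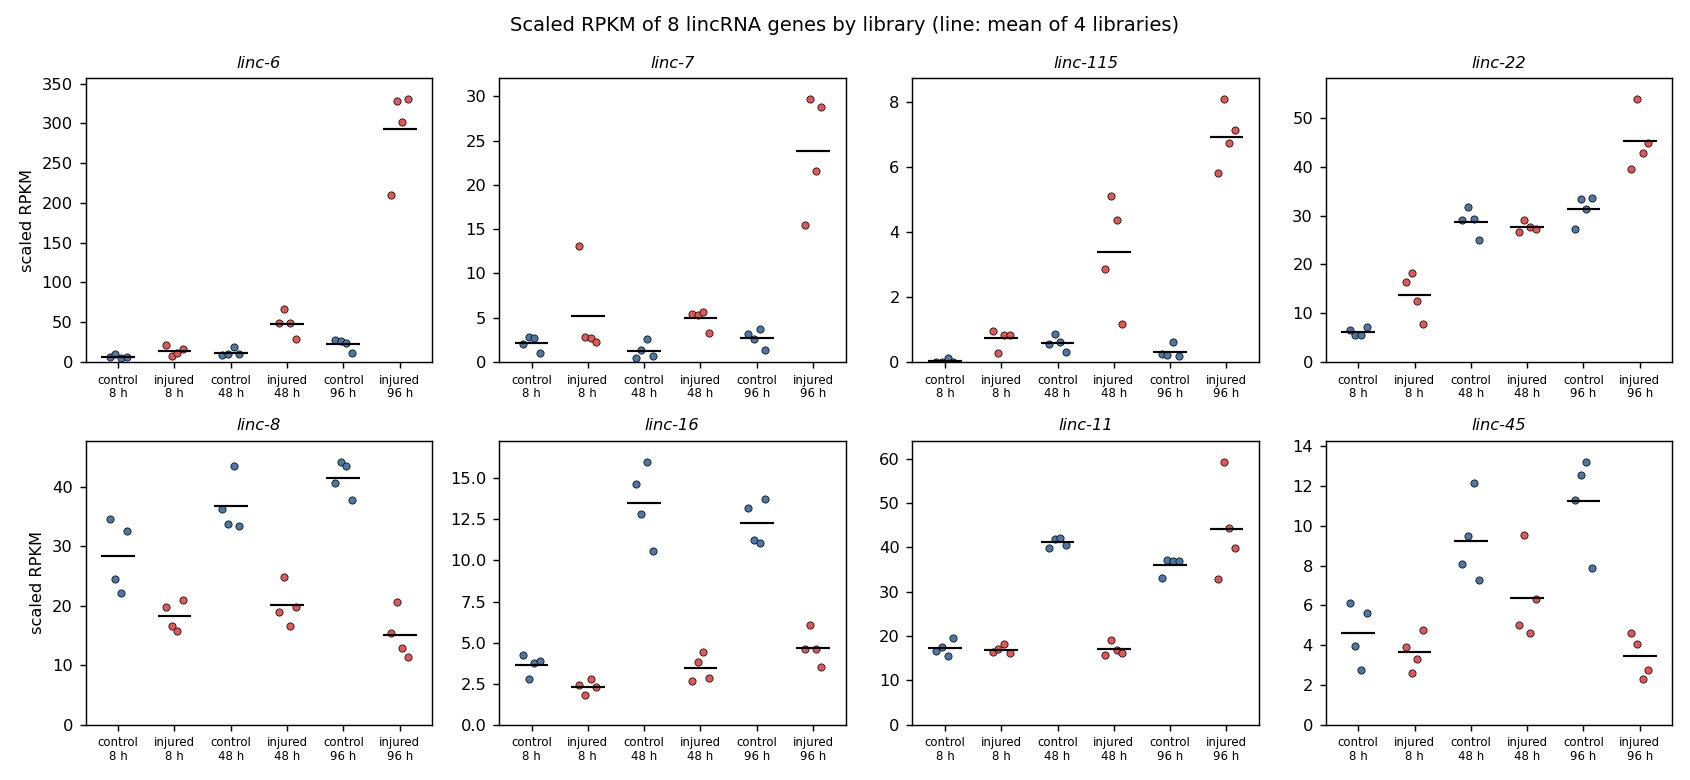
Points are the scaled RPKM of single libraries for 8 lincRNA genes in the 6 groups, blue for control and red for injured, with the mean of 4 libraries as a line; each panel has its own axis from 0. linc-6 reaches 210 to 330 in injured worms at 96 h, linc-11 is low with injury at 48 h only, and linc-8 and linc-16 are lower with injury at each time.

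Other rises at 96 h were smaller. linc-122 on II was at 0.135, 0.730, 0.824 and 0.204 in controls and at 2.00, 3.07, 3.77 and 2.56 after injury (1.83 ± 0.37, adjusted p = 0.000125). linc-84 on I was at 0.860, 0.323, 0.375 and 0.658 in controls and at 2.58, 4.13, 2.72 and 2.02 after injury (1.67 ± 0.27, adjusted p = 9.84e-06). Both genes were separated between the groups, at about 4 to 49 reads per library. linc-169 (1.53 ± 0.31), linc-9 (1.28 ± 0.25) and linc-29 (1.02 ± 0.27) were also higher in every injured library than in any control, with limma adjusted p of 0.000119, 6.34e-05 and 0.00194. linc-56 on X (0.77 ± 0.21, adjusted p = 0.00249) was higher by less.

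Of the 14 genes that were lower at 96 h, linc-5 alone is on X, and the log2 differences ran from -0.37 for linc-5 to -1.60 for linc-45. linc-8 was at 40.6, 44.1, 43.4 and 37.7 in controls and at 15.4, 20.7, 12.9 and 11.4 in injured worms (-1.46 ± 0.17, adjusted p = 5.99e-08, limma), its largest difference of the 3 times. linc-45, on chromosome III (3151809 to 3152607, plus strand), was at 11.3, 12.58, 13.2 and 7.86 in controls and at 4.61, 4.06, 2.30 and 2.74 after injury (-1.60 ± 0.25, adjusted p = 6e-06). All injured libraries of both genes were below all controls. linc-123 was at 0.676, 1.35, 0.483 and 0.316 after injury, below all the 96 h controls given above (-1.47 ± 0.24, adjusted p = 7.53e-06). linc-16 remained lower (-1.32 ± 0.18, adjusted p = 5.42e-07), as its injured level of 4.69 ± 1.0 was far from the 12 ± 1.36 of controls. linc-21 (-1.42), linc-40 (-1.10) and linc-41 (-1.02) were lower without overlap too. linc-50 on IV (-1.32 ± 0.47, adjusted p = 0.0161) was at 0, 2.14, 0.337 and 1.17 after injury, against 2.20, 2.16, 2.30 and 3.04 in controls, and its call was lost without injured library 1 (adjusted p = 0.0897) or 3 (0.0506).

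Several genes that were lower with injury at 96 h had risen in the controls, and both comparisons use the same 96 h control libraries. linc-45, for instance, was at 4.62 ± 1.56 in controls at 8 h, 11.2 ± 2.39 in controls at 96 h and 3.43 ± 1.09 in injured worms at 96 h. The corresponding means of linc-16 were 3.65 ± 0.632, 12 ± 1.36 and 4.69 ± 1.0. In linc-8 they were 28.4 ± 6.05, 41.5 ± 2.92 and 15.1 ± 4.09, so that injured worms at 96 h were below the controls of 8 h as well.

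Over the 3 times, 31 of the 48 lincRNA genes were called with injury at 1 time or more and 17 at none. The shares of all features called at 1 time or more, or at all 3, were not computed. These counts over the 3 times therefore have no background to be read against. The genes linc-6, linc-37 and linc-115 were higher at all 3 times, and linc-8, linc-16 and linc-68 were lower at all 3 times (linc-68 was picked out after its values were seen). linc-6 was higher already at 8 h, at 20.8, 7.52, 11.5 and 16.7 against 6.0, 9.30, 4.75 and 5.99 in controls, where the ranges overlapped (1.00 ± 0.31, adjusted p = 0.013, limma). linc-115 at 8 h was at 0.963, 0.285, 0.823 and 0.841 with injury and at 0, 0, 0.106 and 0 in controls (1.19 ± 0.28, adjusted p = 0.00169). Its control level at that time was below 1 read per library on average, so no fold is given. linc-7 was not called at 8 h (0.81 ± 0.42, adjusted p = 0.14), when injured library 1 alone was at 13.1 and the other 3 at 2.20 to 2.79. A single gene, linc-5, was called in both directions: it was higher with injury at 8 h and at 48 h (0.47 ± 0.15, adjusted p = 0.0115) and lower at 96 h (-0.37 ± 0.15, adjusted p = 0.0344). As given above, the 8 h call of linc-5 was lost in 10 alternative fits.

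Whether the injury effect differed between times was tested directly, as a difference of differences. From 8 to 96 h it became more positive for 7 lincRNA genes (30.6% of all features) and more negative for 11 (28.9%). The gains were led by linc-6 (2.71 ± 0.44, adjusted p = 2.31e-05), linc-84 (2.22 ± 0.39, adjusted p = 5.28e-05), linc-7 (2.13 ± 0.59, adjusted p = 0.00381) and linc-115 (2.05 ± 0.40, adjusted p = 0.000155, limma). On the other side were linc-39 (-1.52 ± 0.49, adjusted p = 0.0112), linc-123 (-1.39 ± 0.34, adjusted p = 0.00122) and linc-45 (-1.31 ± 0.36, adjusted p = 0.00319). From 8 to 48 h the effect became more positive for 1 (19.9%) and more negative for 6 (21.9%). From 48 to 96 h it became more positive for 4 (7.84%) and more negative for 3 (7.07%). On the deposited scale the 8 to 48 h split was 5 (31.6% of all features) and 0 (5.29%), so its direction over the genes depends on the scale.

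The gene linc-11 was called with injury at 48 h alone. The injury effect on linc-11 was -0.03 ± 0.12 at 8 h, -1.25 at 48 h and 0.26 ± 0.12 (adjusted p = 0.0696) at 96 h, and it changed between 8 and 48 h (-1.23 ± 0.18, adjusted p = 2.14e-05) and between 48 and 96 h (1.51 ± 0.18, adjusted p = 1.09e-05, limma). Injured worms at 96 h had linc-11 levels of 32.9, 59.2, 44.4 and 39.9, which overlapped the controls at 33.0, 37.2, 36.9 and 37. The effect on linc-22 fell by 1.10 ± 0.24 between 8 and 48 h (adjusted p = 0.0012). The 8 to 48 h calls of linc-11 and linc-22 were each lost in 1 of the alternative fits (adjusted p = 0.101 and 0.229, limma). The effect on linc-9 rose by 1.03 ± 0.35 over the same interval (adjusted p = 0.0206), a call lost without injured 8 h library 2 (adjusted p = 0.0506) or control 48 h library 4 (0.052). It was also lost without the 4 rRNA-rich libraries (adjusted p = 0.228, limma).

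Reads of genes that share exons cannot be assigned from these values, since the counting rules and strand setting are not stated. Of the 48 tested lincRNA genes 14 share exon bases with another gene, piRNA genes left out. linc-16 has 87.3% of its exon bases within exons of fbxa-3, an F-box gene on the same strand, and the pair moved apart. fbxa-3 was at 22.4, 28.8, 26.7 and 26.4 in controls at 96 h and at 69.2, 73.3, 65.8 and 61.8 after injury (log2 difference 1.36 ± 0.19, adjusted p = 7.51e-07, limma), while linc-16 was 1.32 lower on the log2 scale. In the controls both genes rose from 8 to 96 h, fbxa-3 by 3.11 and linc-16 by 1.63. linc-37 shares 78 bases (25.8% of its exons) with zip-2, which encodes a bZIP transcription factor of the response to infection and lies on the same strand. zip-2 was far more abundant, at 144 ± 19.7 in controls and 205 ± 60.2 in injured worms at 8 h (0.47 ± 0.16, adjusted p = 0.0246), and was higher again at 96 h (0.48 ± 0.16, adjusted p = 0.0107). At 48 h zip-2 was not called (-0.27 ± 0.16, adjusted p = 0.16), whereas linc-37 was higher.

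linc-40 shares 277 bases with Y82E9BL.18 on the same strand, and both were lower at 96 h (-1.10 and -1.08). linc-169 shares 121 bases with the opposite-strand gene mtch-1, a mitochondrial carrier homolog, which was higher by only 0.35 ± 0.12 at 96 h, and 460 bases (70.3%) with the pseudogene F43E2.12, listed at 0. linc-123 shares 85.7% of its exon bases with T26H5.11, which is annotated as a protein-coding gene on the same strand. Exons of linc-123 hold 100% of the exon bases of T26H5.11. linc-5 shares 88.6% with the noncoding gene C04C11.23 on the same strand. Both partners, T26H5.11 and C04C11.23, were listed at 0 in every group. linc-71 lies wholly within exons of cyh-1 on the same strand. cyh-1 was higher at 48 h (0.65 ± 0.15) and 96 h (1.00 ± 0.15) after injury, and linc-71 was called at neither time.

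Some lincRNA genes are neighbours of each other. linc-21 and linc-41 lie 321 bases apart on the minus strand of chromosome IV. At 96 h linc-21 was at 22.9, 25.7, 20.1 and 10.4 in controls and at 5.83, 6.5, 7.0 and 7.51 after injury (-1.42 ± 0.30, adjusted p = 0.000197, limma). linc-41 was at 7.20, 9.34, 7.23 and 8.63 and at 3.45, 5.50, 4.03 and 2.46 (-1.02 ± 0.20, adjusted p = 7.11e-05). Both fell with injury without overlap at this time, but only linc-41 rose in the controls (0.95 ± 0.20, adjusted p = 0.000163), linc-21 being at 0.26 ± 0.30 (adjusted p = 0.451), and the difference between them was not tested. linc-17 and linc-68 lie 704 bases apart on the plus strand of chromosome II and were both lower at 48 h (-0.57 and -1.29) and 96 h (-0.72 and -1.46).

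**Figure D4:**
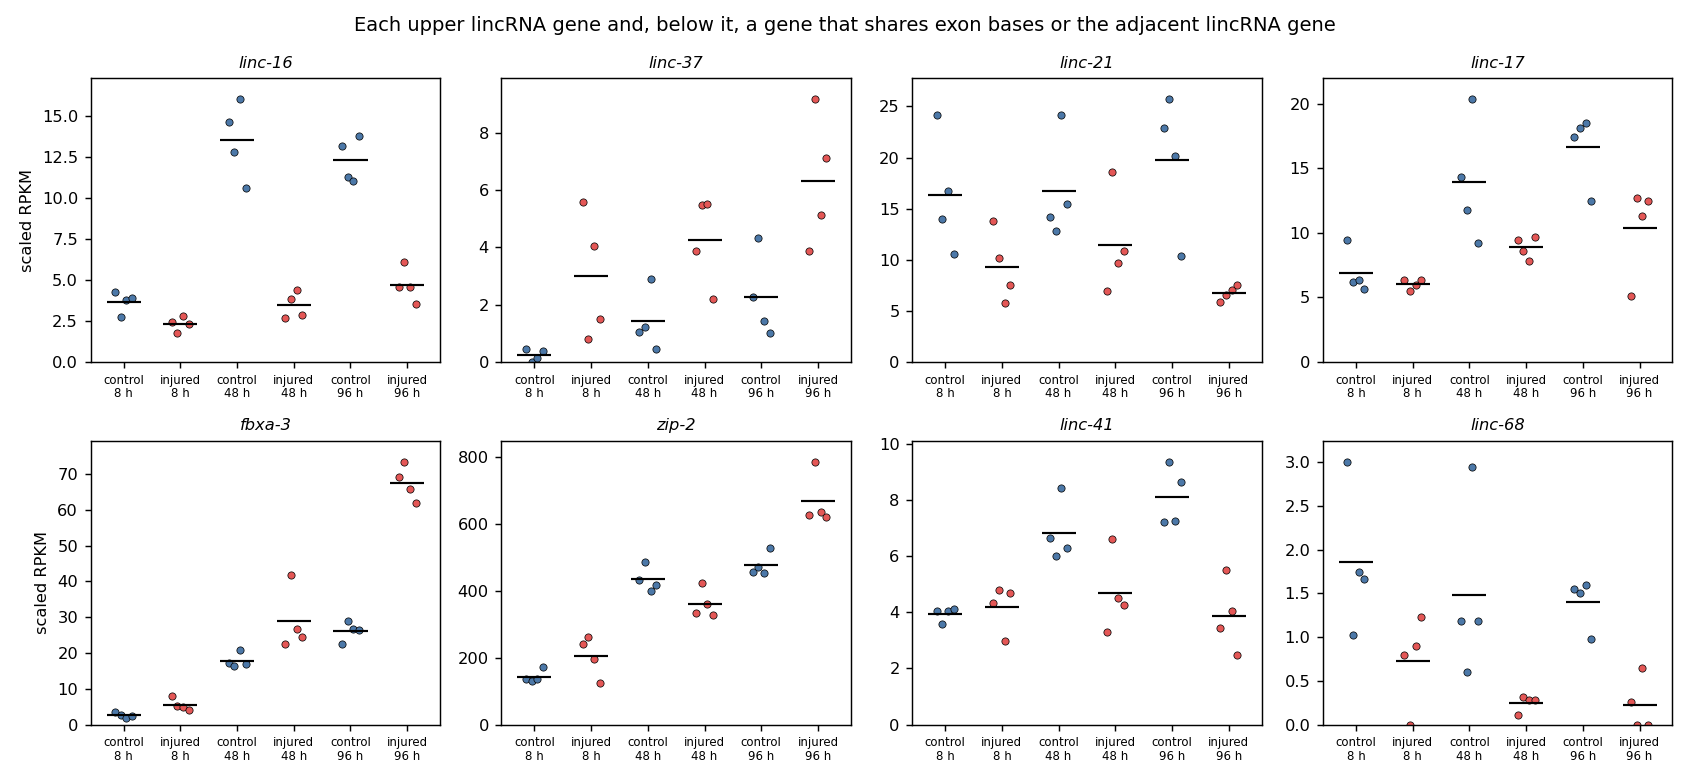
Points are the scaled RPKM of single libraries in the 6 groups, blue for control and red for injured, with the mean of 4 as a line; the upper panels show linc-16, linc-37, linc-21 and linc-17, and below each is a gene that shares exon bases (fbxa-3, zip-2) or the adjacent lincRNA gene (linc-41, linc-68). fbxa-3 is highest at 96 h after injury (61.8 to 73.3) while linc-16 is lower than in controls, and linc-21 and linc-41 are both lower with injury at 96 h.

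The lincRNA genes were next set beside their nearest protein-coding genes. In the 38 pairs of a tested lincRNA gene and its nearest protein-coding gene in which both were tested, both were called in the same direction in 3, 3 and 5 pairs at 8, 48 and 96 h and in opposite directions in 3, 3 and 4. Pearson's r of the log2 changes over these 38 pairs was 0.00, 0.23 and -0.07, given as a description across genes. Of all features tested, 20.9%, 30.5% and 37.4% were higher at these times and 16.6%, 28.0% and 33.2% lower. For the controls from 8 to 96 h, 10 pairs were called in the same direction and 3 in opposite directions, with r of 0.43. Of the 48 tested lincRNA genes 25 rose and 1 fell in this comparison, and of all features 36.0% rose and 36.1% fell. How many pairs of each kind these shares alone would give was not computed for any comparison. In 26 pairs the lincRNA gene shares no exon bases with another gene, piRNA genes left out. Of these, 5 were called in the same direction and 1 in opposite directions, with r of 0.31. In the 12 pairs with shared exon bases it was 5 and 2. Taking the nearest annotated feature of any kind left 27 pairs, of which 4 were called in the same direction and 2 in opposite directions at 96 h.

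The X chromosome held 11 of the tested genes. There, 5 were higher with injury at 8 h, 5 at 48 h and 5 at 96 h. Of all tested features on X, 22.5%, 13% and 14.9% were higher at these times. The 5 genes were not the same at each time, and on X only linc-6 and linc-115 were higher at all 3. On X, 0, 0 and 1 lincRNA genes were lower, among 22.1%, 42.1% and 49.5% of all features there. On chromosome II, with 15 tested genes, 2, 0 and 2 were higher, among 20.1%, 32.2% and 40.3% of all features there, and 4, 6 and 5 were lower, among 19.4%, 28.2% and 31.8%. These counts are few and are given as a description.

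The 86 lincRNA genes below the level limit gave few and small values. Fitted with all 20917 features above 0 in at least 4 libraries, 3 of them were higher (14.5% of all features) and 7 lower (12.2%) at 8 h after injury, 2 (21.6%) and 2 (21.2%) at 48 h, and 7 (27.7%) and 4 (25.8%) at 96 h, smaller shares than those of all features. The genes named here were picked out after their values were seen. linc-77 on IV was at 0.808, 0.812, 0.645 and 0.551 in controls at 8 h and at 0.0535, 0.0285, 0.184 and 0.376 in injured worms (-0.89 ± 0.20, adjusted p = 0.00128, limma). linc-49 was at 0.871, 0.156, 0.550 and 0.244 in controls at 8 h and was listed at 0 in all 4 injured libraries, and linc-12 was likewise listed at 0 in these 4. Averaged over all 24 libraries and not the 8 h groups alone, these 2 genes had 1.58 and 0.498 reads per library. The loss of their transcripts cannot be sized at such levels. linc-104 on I was higher at 96 h, at 0.630, 0.962, 0.793 and 0.260 with injury against 0, 0, 0 and 0.260 in controls, where the highest control and the lowest injured library nearly touched. In the controls, linc-61 fell between 8 and 96 h from 0.871, 1.16, 0.497 and 0.297 to 0, 0, 0.159 and 0, and linc-69 rose from 0, 0.281, 0.127 and 0 to 1.10, 1.60, 0.365 and 0.529. Another group of noncoding genes, named anr for antisense RNA, had 57 members, of which 45.6% were at 0 in all libraries and 7 were tested. Of these 7, 4 rose (36.0% of the 14813 features tested) and 0 fell (36.1%) in the controls from 8 to 96 h. With injury 3 (20.9%), 1 (30.5%) and 3 (37.4%) were higher at 8, 48 and 96 h. None were lower (16.6%, 28.0% and 33.2%), and the counts are few.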

How the data were processed

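The authors sequenced poly(A)-selected RNA as paired reads, mapped it to ce11 in CLC Genomics Workbench, and the values they deposited per gene are RPKM. The annotation release, mapping and strand settings are not given in the sources used here. The labels name strain N2, which was followed, whereas figure legends of the study name CF512 for RNA sequencing. The deposited table also holds 6 columns of the authors' own p-values and FDR values, which were not used. Library numbers are the order of columns and only names.

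Depth was estimated from the steps between low RPKM values (24 of 24 libraries; within 0.1 read of a whole number for 55.4 to 72.9% of low values). Deposited RPKM was divided by median-of-ratios size factors over 14870 features above 0 in all libraries (0.703 to 1.23, and 0.473 for control 48 h library 4). log2(scaled RPKM + 0.5) of the 14813 features with RPKM of at least 1 in at least 4 libraries entered a fit by limma 3.58.1 under R 4.3.3 (1 mean per group over 24 libraries, trend and robust settings, two-sided), with Benjamini-Hochberg adjustment over all features and a threshold of 0.05. The constant makes changes of low genes too small. On simulated data for the 8 h injury comparison, with 14813 features, limma recovered 82.7% of genes changed by 1 and 99.0% of those changed by 2 on the log2 scale. The changed genes were drawn at random from all features tested, with a median of 12.61 scaled RPKM against 2.35 for tested lincRNA genes. Recovery at the level of the lincRNA genes was not tested. Positions came from the Ensembl WBcel235 annotation, the same assembly as ce11, in which all 170 linc genes matched by symbol; no sequence was used here. Marker lists are oocyte and germline, sperm, neuron, intestine, muscle, epidermis, vitellogenin, heat shock and anr genes.

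The lincRNA genes and all lists were chosen with earlier results of these data known. Named were, for each injury comparison, up to 8 rises and 8 falls among called genes with a mean of at least 1 and no overlap; for changes between times up to 5 each; the 5 highest genes; and genes said to be picked after their values were seen. The genes linc-17, linc-56, linc-71, linc-97 and linc-114 were described outside these rules. Alternatives were other scalings, constants, filters, fits and leaving out each library. The neighbour pairs with protein-coding genes and the fit without the 4 rRNA-rich libraries were added after seeing the data.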

Additional observations from a re-analysis of the deposited data

Results flagged for a closer look

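In 17 of 168 groups of 4 libraries looked at among the 28 named lincRNA genes, 1 library stood apart from the other 3, where chance gives about 1 group in 20; all values are scaled RPKM. Highest libraries were linc-7 in injured 8 h library 1 (13.1, the others 2.20 to 2.79), linc-84 in control 8 h library 4 (1.64, the others 0.798 to 0.895), linc-24 in injured 96 h library 2 (11, the others 8.22 to 8.47), linc-13 in injured 48 h library 1 (0.409, the others at 0), and linc-115 in control 8 h library 3 (0.106, the others at 0) and control 96 h library 3 (0.599, the others 0.176 to 0.232). In injured 8 h library 2, in which rRNA took 5.08% of reads, linc-20 (0, the others 1.57 to 2.16), linc-29 (0.569, the others 2.34 to 2.90) and linc-115 (0.285, the others 0.823 to 0.963) were lowest. The other lowest libraries were linc-7 in injured 48 h library 4 (3.27), linc-9 in control 96 h library 4 (4.92), linc-11 in control 96 h library 1 (33.0), linc-30 in control 8 h library 2 (0.698) and injured 96 h library 1 (0.703), linc-41 in control 8 h library 2 (3.57), linc-107 in control 96 h library 2 (1.21) and linc-169 in control 96 h library 3 (0.918).

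The injury effect differed between times, by the test of the difference itself (limma), for these named genes, given as log2 differences. Between 8 and 48 h the effect changed by 1.03 for linc-9, -1.28 for linc-16, -1.23 for linc-11, -1.23 for linc-107, -1.10 for linc-22 and -1.05 for linc-24. Each of these calls was lost in at least 1 alternative fit. Between 48 and 96 h the effect changed by 1.68 for linc-6, 1.51 for linc-11, 1.51 for linc-115, 1.30 for linc-84, -1.35 for linc-123, -1.07 for linc-45 and -0.84 for linc-5. Of these calls, only those of linc-11 and linc-115 were kept in every alternative fit. Between 8 and 96 h the effect changed by 2.71 for linc-6, 2.22 for linc-84, 2.13 for linc-7, 2.05 for linc-115, 1.64 for linc-29, -1.52 for linc-39, -1.39 for linc-123, -1.31 for linc-45, -1.10 for linc-64 and -1.08 for linc-41. Of these calls, only that of linc-64 was lost in any alternative fit.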

How the results depend on the processing

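No named result reversed under any alternative, and 46 of 69 kept their call and direction in all of them. The number of lincRNA genes called at 8 h after injury, 15, was 7 on the deposited scale, 23 without the level limit and 8 with only the compared groups. Without the level limit the controls gave 30 in place of 17 from 8 to 48 h, and the injury effect differed between 8 and 48 h for 12 in place of 7. The controls from 48 to 96 h gave 4 of 48 in the main fit (6.62% of all features higher and 10.6% lower). They gave 2 with rRNA removed from the scale (7.62% and 3.71%) and 2 with a constant of 0.1 (5.85% and 10.2%). Without the 4 rRNA-rich libraries they gave 0 (2.67% and 2.53%). Between 48 and 96 h the injury effect differed for 7 of 48 in the main fit (7.84% and 7.07% of all features). It differed for 4 with a constant of 0.1 (7.11% and 6.46%) and for 4 without those libraries (4.81% and 4.00%). Between 8 and 96 h it differed for 18 of 48 in the main fit (30.6% and 28.9%). On the deposited scale it differed for 11 (23.6% and 20.1%). The cause of these differences was not tested. Leaving out single libraries gave 8 to 12 genes at 8 h after injury, 13 to 16 at 48 h and 23 to 26 at 96 h. In the controls it gave 15 to 19 from 8 to 48 h, 0 to 6 from 48 to 96 h and 23 to 27 from 8 to 96 h. The count from 48 to 96 h was 0 without control 48 h library 4 or control 96 h library 1 or 3, 1 without control 48 h library 1 or 2 or control 96 h library 2, and 2 without control 96 h library 4. For the differences of the injury effect it gave 5 to 9, 5 to 10 and 14 to 19. The counts with single libraries left out are of 48 genes, and the shares of all features in those fits are not given here. No paired analysis was possible because the columns carry no replicate numbers. Tested genes had a median of 24.5 reads per library and the others 2.58, and how far depth limited the calls was not tested.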
